A study of Mus musculus with 8 samples.

Results

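Brox, Aida, Taf1a and Hhipl2 are protein-coding genes that lie in this order on mouse chromosome 1, and each was read by 1 probe, printed in 1 spot, on every array of the series. The members were the probes whose RefSeq transcript, with its version removed, belongs to a gene of this group: NM_027861 for Brox, NM_181732 for Aida, NM_021466 for Taf1a and NM_030175 for Hhipl2. They were 4 of 59709 non-control probes and 4 of the 112 genes to which a symbol could be given. The group was chosen by position on the chromosome and selected on the knockout-control difference of 2 of its genes in earlier results on these arrays, in which Hhipl2 had the clearest rise among named genes and Taf1a was among the genes with lower values, so the knockout differences of Hhipl2 and Taf1a are given as descriptions without a test.

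The study asked what loss of Klf5, a Kruppel-like transcription factor, from cardiomyocytes does to gene expression in the heart. RNA was prepared from the whole heart at baseline, all mice being males of 8 to 12 weeks, and profiled on 1-colour Agilent arrays, with 1 mouse per array. The control group was 4 mice with floxed KLF5 alleles (KLF5 flox flox) and no Cre recombinase, and the knockout group was 4 mice of the line labelled aMHC-KLF5-/-, in which Cre was expressed in cardiomyocytes. All groups thus carry the floxed allele, and the controls lack the Cre transgene. By this design the other cell types of the heart would keep Klf5, which was not checked here. In whole-heart RNA, fewer cells of a type and less RNA per cell cannot be told apart. The number of probes well above background lay between 27806 and 31459 on control arrays and between 28103 and 43290 on knockout arrays. No first part of the array position code was shared by control and knockout arrays, so genotype and this part cannot be told apart. In both groups the code's second part equalled the replicate number. Neither Klf5 nor the markers of heart cell types had a probe with a symbol, so the deletion and the tissue were not checked here.

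The genes have unrelated roles. Brox encodes a Bro1-domain protein that binds ESCRT-III, the membrane-remodelling machinery that also repairs the nuclear envelope. Aida encodes a protein that binds axin and blocks axin-driven activation of the JNK kinases. Taf1a encodes a subunit of selectivity factor SL1, which together with the TATA-binding protein places RNA polymerase I on ribosomal DNA. Hhipl2 is a relative of the gene for the hedgehog-interacting protein, and its own function is little known. Neighbouring genes can share a stretch of promoter when they start back to back, and such pairs are often, though not always, transcribed together.

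In the RefSeq annotation of assembly GRCm38.p6 the protein-coding genes of the stretch run Disp1, Fam177b, Brox, Aida, Mia3, Taf1a and Hhipl2, so Mia3 separates Aida from Taf1a, while Brox and Aida, and Taf1a and Hhipl2, are direct protein-coding neighbours. Brox is on the minus strand, and Aida, Taf1a and Hhipl2 are on the plus strand. Brox and Aida are back to back, with 51 bases between the start of Aida and the nearest listed start of Brox, whereas a further Brox start lies 233 bases downstream of the Aida start, so that those transcripts overlap. Of 27025 genes with a listed start, 12.22% have a partner on the opposite strand whose start lies at most 1000 bases upstream in this divergent arrangement. Neither Taf1a nor Hhipl2 has such a partner. The array probes themselves have no positions used here, and the array was designed on build mm9, so no coordinates of probes are given.

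The 51 bases between the Brox and Aida starts are shown because they are the stretch through which the pair could be controlled together. They lie at chr1:183297009-183297059 of GRCm38.p6, are written on the plus strand, toward Aida, and are 70.6% G or C. Capitals mark CACGTG, a motif known as an E-box, and CCGGAAG, a sequence of the type bound by ETS factors.
Brox to Aida: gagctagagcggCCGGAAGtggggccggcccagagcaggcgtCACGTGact
Searched on both strands in the 250 bases before each of 32851 listed starts, CACGTG was present in 6.02% and CCGGAAG in 6.91%, and the motifs share no base in this stretch. CCGGAAG is not particular to this pair. On either strand it occurs 2 times before the first listed Taf1a start and 3 times before the other, in overlapping windows. It is not marked in the Taf1a sequence below.

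The 250 bases before the first listed starts of Taf1a and Hhipl2 are shown because these direct neighbours had knockout differences of opposite sign. The genes were chosen on those differences, and the motifs were picked after the sequences were seen. Nothing is therefore read from a contrast of the windows. Both are on the plus strand of GRCm38.p6, at chr1:183388635-183388884 for Taf1a and chr1:183418220-183418469 for Hhipl2. Capitals mark CACCC and GGGCGG, searched on both strands, which are core sequences bound by Kruppel-like and Sp factors.
Taf1a: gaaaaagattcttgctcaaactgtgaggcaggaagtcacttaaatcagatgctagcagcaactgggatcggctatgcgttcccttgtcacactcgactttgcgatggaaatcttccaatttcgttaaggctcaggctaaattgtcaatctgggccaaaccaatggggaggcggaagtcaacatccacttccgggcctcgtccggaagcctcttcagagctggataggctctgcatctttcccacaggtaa
Hhipl2: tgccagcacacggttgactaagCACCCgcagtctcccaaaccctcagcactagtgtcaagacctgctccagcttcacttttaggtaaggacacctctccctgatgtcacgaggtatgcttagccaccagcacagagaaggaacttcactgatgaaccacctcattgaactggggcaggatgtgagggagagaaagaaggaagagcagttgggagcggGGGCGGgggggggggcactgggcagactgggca
The Hhipl2 window holds 1 CACCC and 1 GGGCGG, and the Taf1a window holds 0 of either. CACCC was present in 52.01% and GGGCGG in 32.74% of the windows of this length before all listed starts, so these letters are common and a match is only a description. The Aida window holds 1 CACCC and 0 GGGCGG, and the nearest Brox window holds 0 CACCC and 1 GGGCGG. Before the other listed starts there were 2 CACCC and 1 GGGCGG for Hhipl2 and 0 of either for Taf1a. For Brox there were 1 CACCC and 4 GGGCGG, so such matches were not particular to Hhipl2. Their part in any knockout difference was not tested.

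Values are log2 processed signal minus that of the array's own 75th percentile, so that 0 is that percentile. A probe's brightness depends on its sequence, so the levels of the 4 probes are not ranked against each other. Brox, Aida and Taf1a were well above background on all 8 arrays, brighter than 94.0%, 87.8% and 94.0% of probes on average. Hhipl2 was near or below the detection limit in control hearts and 0.21 to 2.33 above it in knockout hearts.

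Brox was 4.38, 4.42, 4.41 and 4.48 in control replicates 1 to 4 and 4.45, 4.31, 4.22 and 4.36 in knockout replicates 1 to 4. The groups overlapped, with 3 of the 4 knockout hearts below the lowest control. All 8 hearts lay within 0.26, the narrowest range of the 4 genes. The control mean was 4.42 ± 0.04 and the knockout mean 4.34 ± 0.10 (SD, n = 4 each), giving a log2 difference of -0.08 with an SE of 0.08 and a 95% interval from -0.28 to 0.11 (adjusted p of 0.792 over all tested probes in limma). On the linear scale the interval reaches from a fold of 0.82 to a fold of 1.08.

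Aida was 2.60, 2.28, 2.24 and 2.48 in control replicates 1 to 4 and 2.49, 2.37, 2.24 and 2.12 in knockout replicates 1 to 4. Control replicate 1 was the highest heart and knockout replicate 4 the lowest, and the groups overlapped over most of their range. The means were 2.40 ± 0.17 and 2.31 ± 0.16 (SD, n = 4 each), a log2 difference of -0.10 with an SE of 0.12 and a 95% interval from -0.38 to 0.19 (adjusted p of 0.836 over all tested probes in limma). On the linear scale this interval spans folds from 0.77 to 1.14.

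Taf1a was 4.43, 4.59, 4.36 and 4.58 in control replicates 1 to 4 and 4.37, 4.16, 4.22 and 4.20 in knockout replicates 1 to 4. Knockout replicate 1 lay just above control replicate 3, and the other 3 knockout hearts lay below every control. The means were 4.49 ± 0.12 and 4.24 ± 0.09 (SD, n = 4 each), a log2 difference of -0.25 with an SE of 0.10 and a 95% interval from -0.47 to -0.03, which is a fold of 0.84. The interval is not adjusted for the number of probes or for the choice of Taf1a among genes with lower values. That it leaves out 0 is therefore no test. A difference at least this large in either direction was found for 28.84% of tested probes. Tbp, which encodes the TATA-binding protein of the same SL1 factor and was the 1 gene of 14 fixed for RNA polymerase I initiation that had a symbol and was tested, had a mean of 1.21 ± 0.08 among controls and of 1.21 ± 0.06 among knockouts (SD, n = 4 each). Its log2 difference was 0.00 with an interval from -0.19 to 0.19 (adjusted p of 0.997 in limma).

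Hhipl2 was -3.23, -2.77, -2.74 and -2.83 in control replicates 1 to 4 and -1.96, -2.05, -2.08 and -2.05 in knockout replicates 1 to 4. The groups did not overlap, and the knockout hearts were closer together than the controls, with control replicate 1 the lowest of all. Groups without overlap were found for 5.75% of tested probes, and a difference at least as large in either direction for 3.77%. Nothing is read from these shares because the contrast was known when the gene was chosen. Hhipl2 also passed the filter for tested probes only through the knockout group, where it was well above background on all 4 arrays. In unscaled processed intensity the control spots read 35.6, 51.9, 44.7 and 43.6 and the knockout spots 77.7, 79.7, 81.9 and 83.9. The means were -2.89 ± 0.23 and -2.03 ± 0.05 (SD, n = 4 each), a log2 difference of 0.86 with an SE of 0.12 and a 95% interval from 0.58 to 1.14, which is a fold of 1.81 as measured. With 3 of the 4 control spots not well above background, this size is uncertain. The alternatives for dim signal, 0.48 with values raised to the detection limit and 0.34 with normexp background correction, lay below the interval. Raising lifted 3 control values and no knockout value, so it could only shrink the difference. Normexp added an offset of 50, which narrows log2 differences of dim signal, and was followed by quantile normalization. These lower values are therefore no independent estimate of the size.

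**Figure D1:**
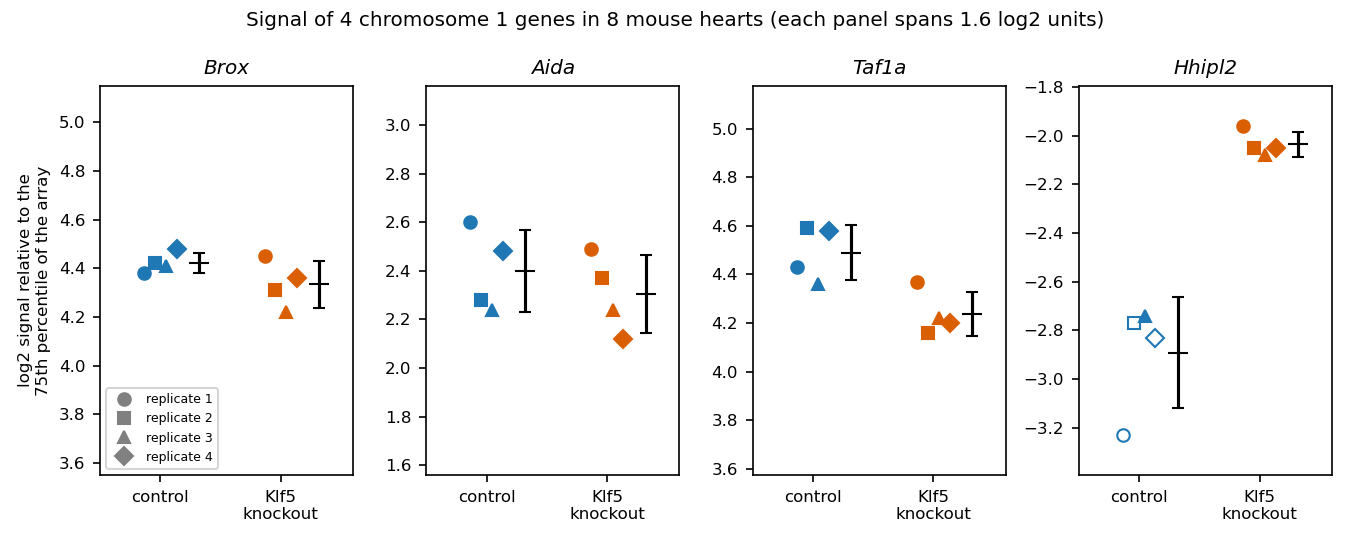
Log2 signal minus the array's 75th percentile (vertical axis) for Brox, Aida, Taf1a and Hhipl2 in control (blue) and Klf5 knockout (orange) hearts, with marker shape for the replicate, open markers where the spot was not well above background, and black bars for the mean and SD of 4 hearts. All panels span the same log2 range at different heights, and only for Hhipl2 do the groups not overlap, with controls from -3.23 to -2.74 and knockout hearts from -2.08 to -1.96.

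The control values behind the Hhipl2 difference were signal near background. The spot was well above background in 1 of 4 control hearts and in all 4 knockout hearts. The lowest signal well above background, here called the detection limit, was -2.24, -2.65, -2.76 and -2.42 on control arrays 1 to 4 and -3.14, -4.38, -3.70 and -2.26 on knockout arrays 1 to 4. The limit was therefore lower on knockout arrays 1, 2 and 3 than on every control array, while that of knockout array 4 was within the range of the controls. All 4 knockout values, the lowest being -2.08, were above the limit of each control array. Knockout replicate 4, on the array with a limit of -2.26, read -2.05, within the range of the other knockout hearts, -2.08 to -1.96. The part of the lower limits in the size of the difference was not tested, since the alternatives given above narrow it by their construction.

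**Figure D2:**
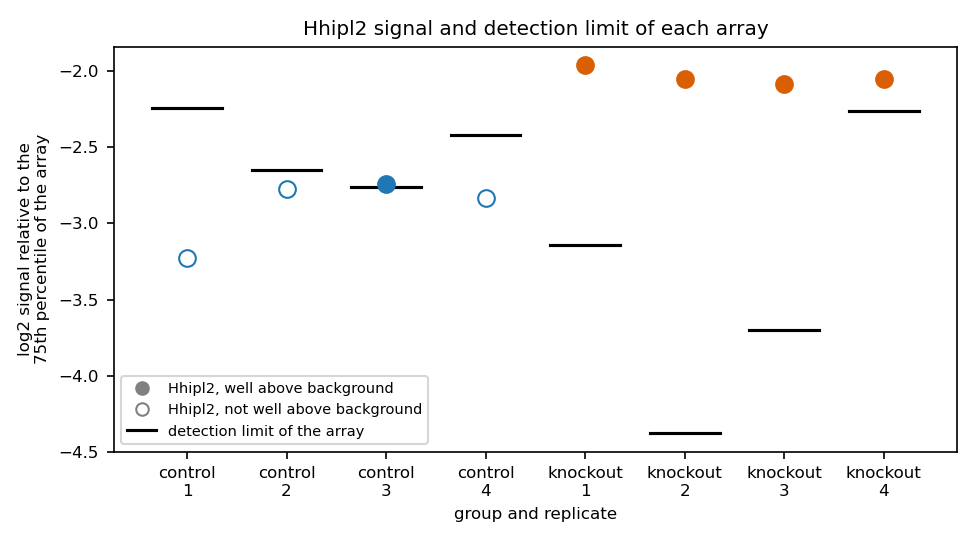
Log2 Hhipl2 signal minus the array's 75th percentile (circles, blue for control and orange for knockout, open where not well above background) beside the detection limit of that array (black line), for each of the 8 hearts. Each knockout value lies above its own limit and above all control limits, and 3 control values lie below their own limit.

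At an adjusted p under 0.05 over all 27878 tested probes in limma, 0 of the 4 genes were called, while 0.140% of tested probes were called. Nothing is read from this count, since the choice of genes used the contrast. The median difference over all tested probes was 0.00 on the log2 scale, and the median absolute difference was 0.14. The differences of Brox and Aida were below this size. Those of Taf1a and Hhipl2 were above it, which their choice on this contrast favoured, so nothing is read from it. The difference between Brox and Aida signals within each array, which scaling does not affect, was 0.01 higher in knockout than in control hearts, with an SD of 0.18 among controls and 0.14 among knockout hearts (n = 4 each). For this back-to-back pair the knockout differences thus differed from each other by less than the spread between hearts. Aida minus Taf1a, of genes not back to back, was 0.15 higher, with an SD of 0.20 among controls and 0.13 among knockout hearts. Brox minus Taf1a was 0.17 higher, with an SD of 0.09 among controls and 0.08 among knockout hearts. Taf1a was chosen on this contrast, so nothing about the arrangement of the genes is read from these values. For the direct neighbours Taf1a and Hhipl2, the knockout minus control difference of the Taf1a minus Hhipl2 signal within arrays was -1.11 as measured. Its SD was 0.23 among controls and 0.05 among knockout hearts (n = 4 each). With dim Hhipl2 values set to the detection limit it was -0.73. Both genes were chosen on this contrast, in opposite directions, so nothing is read from this gap or from its contrast with Brox and Aida.

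**Figure D3:**
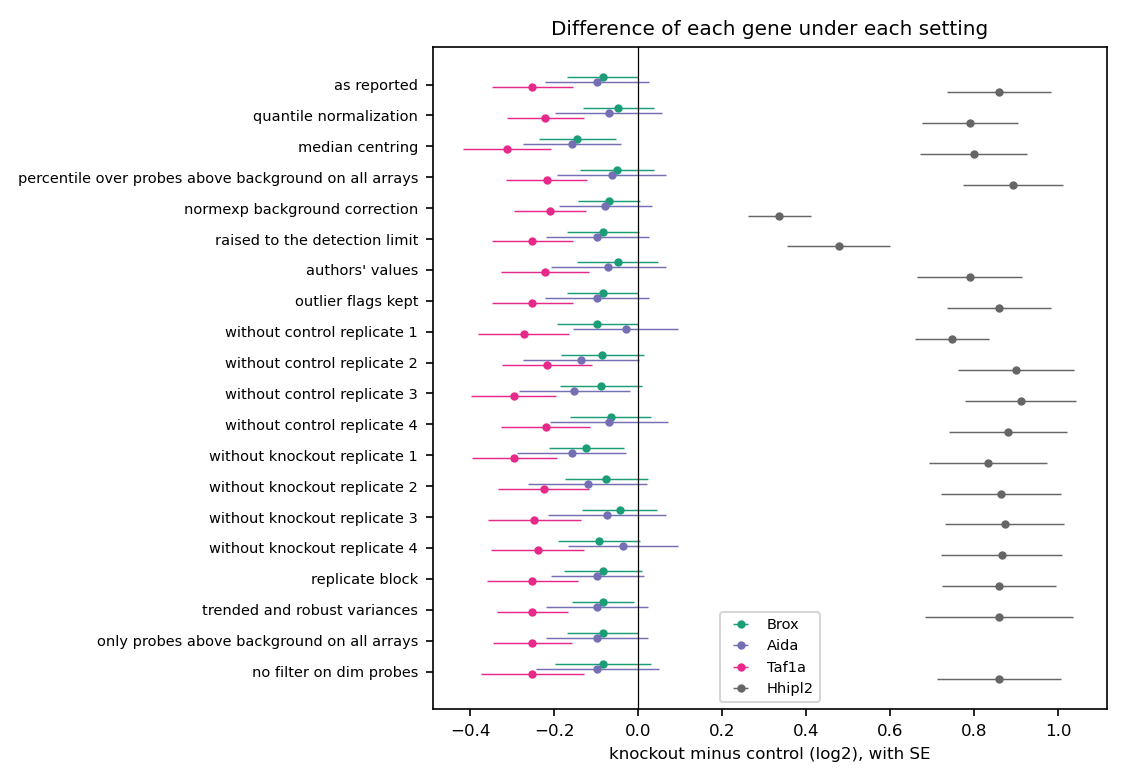
Knockout minus control log2 difference (horizontal axis, with its SE) of Brox, Aida, Taf1a and Hhipl2 as reported and under each alternative setting (vertical axis). Brox, Aida and Taf1a lie below 0 throughout, between -0.31 and -0.03, and Hhipl2 lies above 0, with its lowest values, 0.34 and 0.48, under normexp and when dim values were raised to the detection limit.

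Whether the genes varied together from heart to heart was examined after the mean of each group had been subtracted, since the group difference was known when the genes were chosen. The hearts were permuted within their group in all 576 ways, with two-sided p-values adjusted over the 6 pairs. The smallest p this design allows is 0.0017, and the groups of 4 are too small for a correlation of their own. Brox and Taf1a had the highest correlation, with a Pearson r of 0.58 (exact permutation p = 0.135, adjusted 0.432) and a Spearman rho, on ranks within the groups, of 0.50 (exact permutation p = 0.295, adjusted 0.885). Without the 2 hearts farthest from the Brox median r was 0.75, and without knockout replicate 1 it was 0.27. Over all tested probes, 9.05% had a correlation with Taf1a at least as high as that of Brox, and 13.93% had one with Brox at least as high as that of Taf1a.

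Brox and Aida, the back-to-back pair, had an r of 0.30 (exact permutation p = 0.540, adjusted 0.648) and a rho of 0.10 (exact permutation p = 0.885, adjusted 1.0). Without the 2 hearts farthest from the Brox median r was 0.14, and without knockout replicate 1 it was -0.14. Of all tested probes, 27.45% were at least as highly correlated with Aida as Brox was, and 34.76% with Brox as Aida was. Shared variation of the pair was thus not detectable in 8 hearts, where the spread of Aida within groups was larger than that of Brox.

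Aida and Taf1a, which Mia3 separates, had an r of 0.31 (exact permutation p = 0.464, adjusted 0.648) and a rho of 0.30 (exact permutation p = 0.559, adjusted 1.0). Leaving out the 2 hearts farthest from the Aida median gave 0.63, and leaving out knockout replicate 1 gave -0.002. Knockout replicate 1 was the highest knockout heart for all 4 genes, and without it no positive correlation of Aida with Brox or Taf1a remained.

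The pairs with Hhipl2 carry its low signal. Taf1a and Hhipl2, the direct neighbours, had an r of 0.30 (exact permutation p = 0.795, adjusted 0.795) and a rho of 0.00 (exact permutation p = 1.0, adjusted 1.0), and r was -0.09 without the 2 hearts farthest from the Taf1a median. Brox and Hhipl2 had an r of 0.37 (exact permutation p = 0.144, adjusted 0.432) and a rho of 0.50 (exact permutation p = 0.295, adjusted 0.885), with an r of 0.39 without the 2 hearts farthest from the Brox median. Aida and Hhipl2 had an r of -0.51 (exact permutation p = 0.253, adjusted 0.507) and a rho of -0.10 (exact permutation p = 0.885, adjusted 1.0). This negative value rests on control replicate 1, highest for Aida and lowest for Hhipl2, since r was 0.19 without it and 0.09 without the 2 hearts farthest from the Aida median. In all, 0 of the 6 pairs passed an adjusted p of 0.05 by the exact permutation test, and 0 had an unadjusted p under 0.05.

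**Figure D4:**
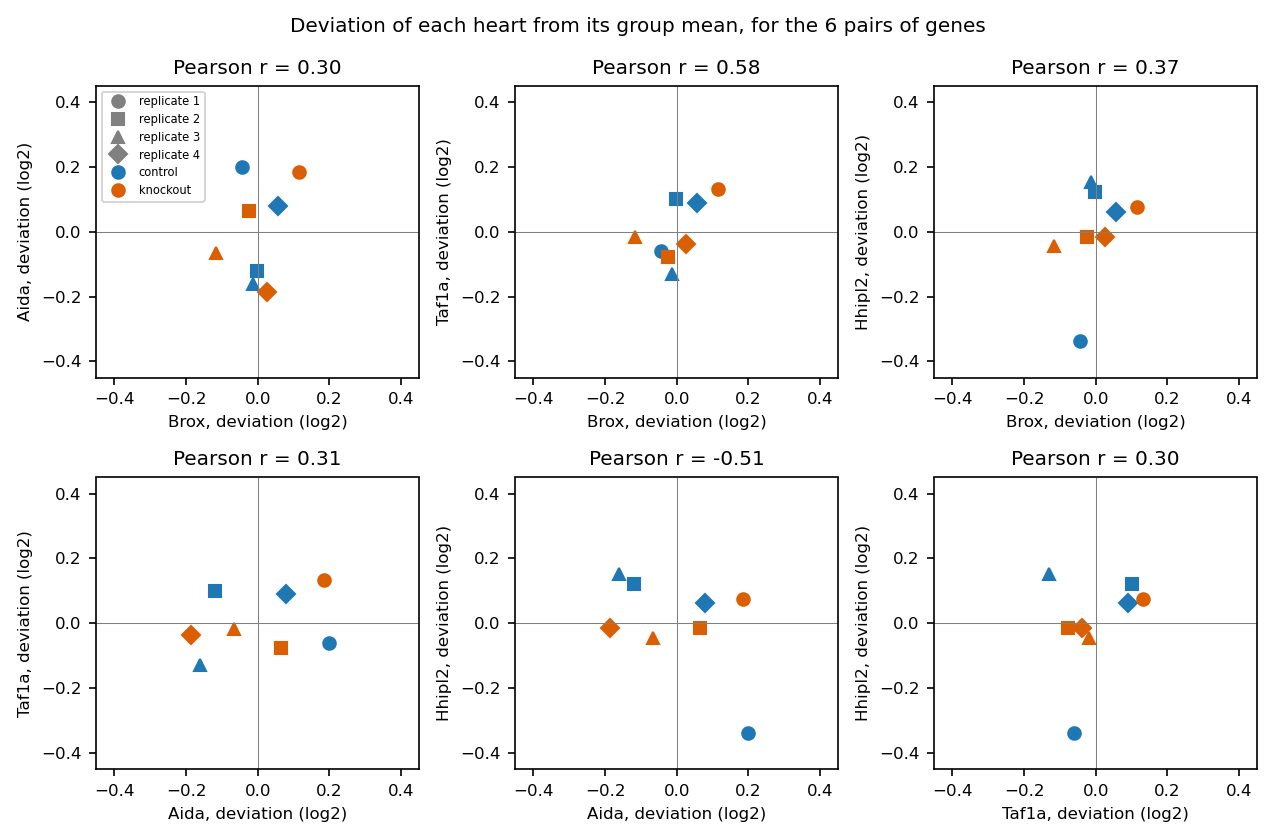
Deviation of each heart from its group mean (log2) for each of the 6 pairs of genes, with control hearts in blue, knockout hearts in orange and marker shape for the replicate; the title of each panel gives Pearson r. The points of Brox and Taf1a rise together most, with r of 0.58, and in the panel of Aida and Hhipl2 control replicate 1 stands apart at the lower right.

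The number of probes well above background on each array was set against the 4 genes in the same way. The correlations, with group means removed, were -0.37 for Brox, 0.18 for Aida, -0.20 for Taf1a and 0.17 for Hhipl2, and the exact permutation p adjusted over the 4 genes was 0.769 for each of them.

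Of 9 genes fixed as neighbours of the stretch, Disp1 and Mia3 had a probe with a symbol. Disp1, which encodes the Dispatched protein that releases lipid-bearing hedgehog from cells, was 2.18, 2.30, 1.90 and 2.32 in control replicates 1 to 4 and 2.56, 2.24, 1.97 and 2.37 in knockout replicates 1 to 4. Its groups overlapped, with a log2 difference of 0.11 and an interval from -0.24 to 0.46 (adjusted p of 0.848 in limma). With group means removed, its Pearson r over the 8 hearts was 0.85 with Brox, 0.74 with Taf1a, 0.45 with Aida and 0.06 with Hhipl2, given as a description, so its values with Brox and Taf1a were above those of all 6 pairs within the group. Mia3, which encodes a receptor that loads collagen for export from the endoplasmic reticulum and lies between Aida and Taf1a, was well above background on 0 control and 2 knockout arrays and was not tested. Its values ran from -4.61 to -2.77 in controls and from -3.93 to -2.76 in knockout hearts.

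Among the 85 other genes with a symbol, those most like each gene over the 8 hearts, with group means removed, were taken by the highest Pearson r, as a description with no test. For Brox they were Ccdc82 with 0.94, the zinc finger gene Zfp131 with 0.87 and Disp1 with 0.85, and 1.51% of all tested probes were at least as similar to Brox as Disp1 was. For Aida they were Amy2a5 with 0.82, Gk with 0.76 and Gusb with 0.72, which encode a pancreatic amylase, glycerol kinase and beta-glucuronidase. The amylase gene has near-identical copies, so its signal cannot be assigned to 1 of them. For Taf1a they were Tagap, a T-cell GTPase activator gene, with 0.79, and 2 predicted genes. For Hhipl2 they were the vomeronasal receptor genes Vmn1r259 with 0.69 and Vmn1r135 with 0.65, members of a large family of similar sequences, and the cyclophilin gene Ppia with 0.65. Of all tested probes, 8.77% had an r with Hhipl2 at least as high as that of Vmn1r259. In none of these lists was a member of the group among the most similar genes.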

How the data were processed

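Ribosomal RNA was removed from total heart RNA, which was copied with random primers into Cy3-labelled cRNA, per the labels' protocols. The deposited scanner files hold spot intensity from Agilent Feature Extraction (version 11.0.1.1), background-corrected and not scaled between arrays, per the file headers and the submitters' processing notes. The authors' deposited value table is on a log2 scale with near-equal distributions; the sources used here do not give its method, and it served as an alternative.

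From the log2 processed intensity of each array, the 75th percentile of its 59709 non-control probes was subtracted. Spots with an outlier flag, of which the 4 genes had 0, and named negative controls were left out. Probes with at least 3 usable arrays per group, and well above background throughout the usable arrays of either group, were tested, leaving 27878. Groups were compared over all of them with limma (version 3.58.1, R version 4.3.3) and p-values adjusted by Benjamini-Hochberg; correlations were computed in Python 3.11.15. Both were tested on simulated data. The labels do not say how the mice relate, and the number of arrays limits the precision. RefSeq accessions stood beside 123 probes, of which 116 matched a symbol in assembly GRCm38.p6, giving 112 genes, 86 of them tested. Promoter sequences are RefSeq's, of the same assembly, and a listed start is 1 of its entries.

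The members and lists were chosen with earlier results of these data known, and the motifs after the sequences were seen. Named genes were the 4 members, measured genes of the fixed lists, and for each member the 3 genes with a symbol of highest correlation, predicted genes being only counted. Of the lists, 2 of 9 neighbours and 1 of 14 RNA polymerase I genes had a symbol; 0 of 15 ESCRT, 0 of 9 axin and JNK and 0 of 14 hedgehog genes did, nor did markers of 7 cell types. A probe does not distinguish the transcripts of its gene, of which RefSeq lists 8 for Brox, 1 for Aida, 4 for Taf1a and 9 for Hhipl2. Alternatives were other scalings, normexp with an offset of 50 on the median signal in place of the mean, values raised to the detection limit, kept flags, other filters and variances, a replicate block and leaving out each heart.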

Additional observations from a re-analysis of the deposited data

How the results depend on the processing

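The differences kept their sign in every alternative run. Over 11 alternatives other than leaving out a heart they ran from -0.14 to -0.05 for Brox, -0.16 to -0.06 for Aida and -0.31 to -0.21 for Taf1a, and over 10 for Hhipl2, which the filter on all arrays leaves out, from 0.34 to 0.89. Hhipl2 moved by more than the spread between hearts with normexp, to 0.336, and with dim values set to the detection limit, to 0.477. For Hhipl2 both settings act to narrow the difference, through the offset and through the raised control values. Leaving out 1 heart gave -0.12 to -0.04 for Brox, -0.16 to -0.03 for Aida, -0.30 to -0.22 for Taf1a and 0.75 to 0.91 for Hhipl2. The number of the 4 genes called by limma was 1 with the percentile over probes above background on all arrays, and 0 to 1 on leaving out 1 heart. The gene was Hhipl2, at the percentile and without control replicate 1, and these calls are no test of it, since it was chosen on this contrast.

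With the replicate number as a block Hhipl2 stayed at 0.86 and 0 of the 4 genes were called; same-numbered hearts had correlated deviations of 0.06, -0.05, 0.36 and 0.24, of which 2 were not over 0.1, so the numbers were not taken as pairing the hearts. Same-numbered arrays also share the second part of their position code, so the block covers it too.

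Correlations were less stable. Brox with Hhipl2 was -0.104 with normexp. Aida with Hhipl2 was 0.827 when dim values were set to the detection limit, where the exact permutation p adjusted over the pairs was 0.0312, and 3 control values of Hhipl2 are then the limits of their arrays by construction. Without the 2 farthest hearts Aida with Hhipl2 was 0.0901 and Taf1a with Hhipl2 -0.0871. Leaving out 1 heart gave -0.137 to 0.552 for Brox with Aida, 0.267 to 0.797 for Brox with Taf1a, 0.313 to 0.511 for Brox with Hhipl2, -0.002 to 0.590 for Aida with Taf1a, -0.743 to 0.192 for Aida with Hhipl2 and 0.113 to 0.782 for Taf1a with Hhipl2. Apart from effects of construction, the cause was not tested. Every Hhipl2 difference and correlation uses control values near background, 3 of them from spots not well above it.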
